A study of Mus musculus with 2 samples.

Results

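A set of 10 genes of the axonal and nodal adhesion machinery was read in RNA from dorsal root ganglion (DRG) neurons of immunized and control mice. They encode the contactins Cntn1 and Cntn2, the contactin-associated proteins Cntnap1 (Caspr) and Cntnap2 (Caspr2), the cell adhesion molecules Nfasc (neurofascin) and Nrcam, the secreted protein Lgi1, the ankyrins Ank2 and Ank3 and the spectrin Sptbn4. Members were the rows whose gene symbol equals 1 of these names, which gave 10 of 24411 genes and 29 of 35034 RefSeq transcripts. Both groups consisted of male C57BL/6J mice with no introduced allele, 6 to 8 weeks old, that were injected intraperitoneally on day 0 and day 14 and killed 14 days after the second injection. The alum-injected controls received the adjuvant alum at 50% in saline, so the library that GEO's label also calls naïve came from injected animals. The alum + KLH-immunized mice received the same alum together with 100 µg of KLH, keyhole limpet hemocyanin, which is foreign to the mouse and serves as a model antigen. Neurons were enriched from thoracic and lumbar DRGs by digestion, trituration and a density step, B lymphocytes were depleted with beads, and the neurons of 10 mice were pooled into 1 library per group.

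With 1 pooled library per group, no difference below has a replicate check, no test was made, and the spread between mice cannot be seen. Values are given as TPM, the transcript abundance scaled for length and to the same total in each library, and can be compared between genes. The difference between the pools is given as a log2 ratio of TPM + 1, alum + KLH over alum, and is set beside the SD of that ratio over the 500 genes of closest abundance. That SD describes how far genes of like level lay apart in these 2 libraries, and it is not an error between animals. In bulk samples, fewer cells of a type and less RNA per cell cannot be told apart.

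Myelinated axons carry ordered membrane domains around each node of Ranvier. Neurofascin and NrCAM gather the voltage-gated sodium channels at the node and at the axon initial segment, where ankyrin-G (Ank3) and beta-IV spectrin (Sptbn4) tie them to the membrane skeleton. At the flanking paranode, contactin-1 and Caspr of the axon bind the glial form of neurofascin, and at the juxtaparanode contactin-2 and Caspr2 hold the Kv1 potassium channels. LGI1 is secreted by neurons and binds the receptors ADAM22 and ADAM23. Several of these proteins are targets of autoantibodies in human disease: those to neurofascin, contactin-1 and Caspr occur in autoimmune nodopathies of peripheral nerve, and those to LGI1 and Caspr2 in encephalitis and in nerve hyperexcitability, in which Caspr2 antibodies can be accompanied by pain.

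Neurofascin was represented by a pair of transcripts that differ in coding exons, which are shown because they separate the neuronal from the glial type of the protein. The gene lies on the minus strand of chr1:132564690-132741797 (GRCm38). Transcript NM_182716, with 1240 codons, carries a coding exon of 237 bases at chr1:132588074-132588310 that NM_001160316 lacks. NM_001160316, with 1174 codons, carries a coding exon of 205 bases at chr1:132597765-132597969 that NM_182716 lacks. Both exons are written 5′ to 3′ on the coding strand, and capitals mark the whole codons for serine, threonine or proline.
NM_182716 exon: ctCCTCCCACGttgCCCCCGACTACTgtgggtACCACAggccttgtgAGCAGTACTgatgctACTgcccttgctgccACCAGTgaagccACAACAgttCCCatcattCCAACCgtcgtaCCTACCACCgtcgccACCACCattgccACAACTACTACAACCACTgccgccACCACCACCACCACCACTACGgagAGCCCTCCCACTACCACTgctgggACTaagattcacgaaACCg
NM_001160316 exon: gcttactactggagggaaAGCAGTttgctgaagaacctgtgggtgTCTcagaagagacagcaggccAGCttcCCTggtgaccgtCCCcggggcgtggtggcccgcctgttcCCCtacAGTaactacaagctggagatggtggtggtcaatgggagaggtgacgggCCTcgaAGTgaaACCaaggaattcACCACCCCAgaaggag
These codons made up 59.0% of the first exon, against 24.0% of the whole coding sequence of NM_182716, and threonine codons alone made up 42.3% of it. In the exon of NM_001160316 they made up 20.6%, near the 21.0% of its whole coding sequence. A serine-, threonine- and proline-rich, mucin-like segment is the known mark of neuronal NF186, and a fibronectin type III domain of its own is that of glial NF155. The transcripts are therefore called NF186-type and NF155-type here. GENCODE pairs the structure of NM_001160316 also with the row NM_001160317, which was at 0 in both pools.

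Cntn1 and Cntnap2 were represented by transcripts with separate start sites, and the 250 bases before each start are shown because each belongs to a transcript with its own value in the pools. Cntn1 lies on the plus strand of chr15:92051165-92341967. The starts of NM_001159648 and NM_001159647 lie 110192 bases apart, and the 3 Cntn1 transcripts share the same coding sequence of 3060 bases. Cntnap2 spans chr6:45059357-47304213 on the plus strand. Its long transcript, NM_001004357, has 24 exons and 3996 coding bases, and the short NM_025771 starts 2184335 bases further downstream, has 4 exons and 324 coding bases, and encodes in frame exactly the last 108 codons of the long one. Capitals mark matches to CCAAT and GGGCGG on either strand.
NM_001159648 (Cntn1, chr15:92050915-92051164): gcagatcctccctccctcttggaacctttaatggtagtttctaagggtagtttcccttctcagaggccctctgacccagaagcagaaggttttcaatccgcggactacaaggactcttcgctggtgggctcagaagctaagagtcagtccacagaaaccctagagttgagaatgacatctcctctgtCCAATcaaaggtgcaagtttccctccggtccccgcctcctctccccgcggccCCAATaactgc
NM_001159647 (Cntn1, chr15:92161107-92161356): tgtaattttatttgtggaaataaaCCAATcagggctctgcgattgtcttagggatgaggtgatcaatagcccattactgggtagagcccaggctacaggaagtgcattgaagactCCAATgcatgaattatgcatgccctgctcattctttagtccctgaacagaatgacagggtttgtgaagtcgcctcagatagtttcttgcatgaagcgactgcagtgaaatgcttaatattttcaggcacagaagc
NM_001004357 (Cntnap2, chr6:45059811-45060060): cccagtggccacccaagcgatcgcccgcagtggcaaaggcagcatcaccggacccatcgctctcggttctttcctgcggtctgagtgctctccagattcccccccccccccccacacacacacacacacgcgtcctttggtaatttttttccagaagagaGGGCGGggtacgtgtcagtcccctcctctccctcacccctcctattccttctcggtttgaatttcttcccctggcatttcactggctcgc
NM_025771 (Cntnap2, chr6:47244146-47244395): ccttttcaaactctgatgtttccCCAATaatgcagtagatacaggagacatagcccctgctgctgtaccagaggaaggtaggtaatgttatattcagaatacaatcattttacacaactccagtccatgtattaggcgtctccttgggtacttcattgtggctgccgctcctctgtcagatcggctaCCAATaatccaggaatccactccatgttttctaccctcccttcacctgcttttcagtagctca
The windows are from RefSeq on GRCm38.p6. Both downstream starts had 3 CpG dinucleotides in these bases, whereas the upstream starts had 7 in Cntn1 and 13 in Cntnap2, beside a median of 6 over 32851 promoter windows. The GC content was 43.6% and 45.2% before the downstream starts and 53.6% and 59.6% before the upstream ones, with a median of 52.4% over all windows. CCAAT matched 2 times in both Cntn1 windows and in that of the short Cntnap2 transcript, and it occurs in 33.8% of all windows. GGGCGG matched once, before the long Cntnap2 transcript, and occurs in 32.7% of windows. TATAAA, found in 12.4% of windows, and TGACGTCA, found in 1.55%, had no match in the 4 windows. These letter strings do not overlap each other in the windows, and a match is a description and not a binding site.

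Of the 10 genes, 9 were above the detection threshold of 3 TPM in both pools, and they covered levels from 13.2 to 582.1 TPM. Over all 24411 genes, 11454 were above 3 TPM in the alum pool and 11302 in the alum + KLH pool. The 10 genes together held 1818 TPM in the alum pool and 1794 TPM in the alum + KLH pool, which is 0.182% and 0.179% of each library. The order of their levels was the same in both pools except that Ank2 and Cntn1 changed places at the top. Ank2 and Cntn1 were followed by Cntnap2, Lgi1, Ank3, Nrcam, Nfasc, Cntn2, Cntnap1 and Sptbn4. The ranges over the 2 pools overlapped between Ank2 and Cntn1 and between Nfasc and Cntn2, and between no other neighbours in that order. From the highest to the lowest detected gene the levels differed 38.3-fold in the alum pool and 41.4-fold in the alum + KLH pool.

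**Figure D1:**
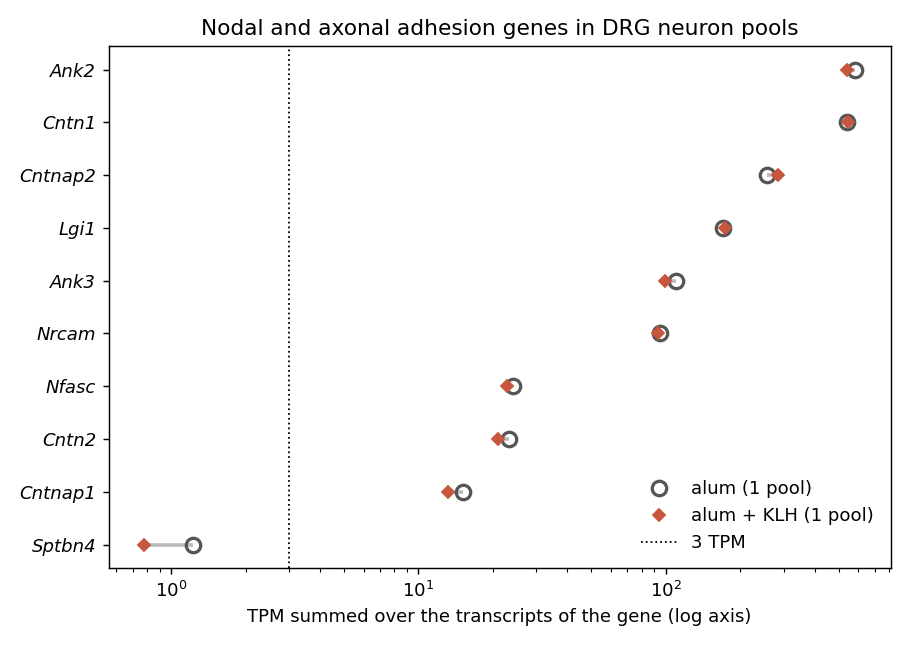
Summed TPM of each gene on a log axis, with an open circle for the alum pool and a filled diamond for the alum + KLH pool. Each symbol is 1 pooled library, and Sptbn4 is the gene left of the dotted line at 3 TPM.

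A difference between the pools was counted when the higher value was at least 25% above the lower on the TPM + 1 scale, and none of the 9 detected genes reached that size. Among all 11648 genes above 3 TPM in at least 1 pool, 2.29% were at least that much higher in the alum + KLH pool, 5.39% were at least that much lower, and 7.68% did either. The 9 log2 ratios ran from -0.20 for Cntnap1 to 0.15 for Cntnap2, with 6 below 0 and 3 above. Their median was -0.09, beside -0.02 over all 11648 genes, of which 56.4% were below 0. For 8 of the 9 genes the ratio was no larger than the SD of genes of like abundance, the exception being Ank3 at -0.135 beside an SD of 0.134. This count depended on the setting: it was 5 of 9 with the 200 closest genes, where Cntn2, Cntnap1, Cntnap2 and Ank3 lay beyond their SD. It was also 5 of 9 relative to Hprt, with Cntn2, Cntnap1, Ank2 and Ank3 beyond, and from NM rows only, with Cntn2, Cntnap2, Ank2 and Ank3 beyond. Sptbn4 was under the threshold in both pools and was not counted, although its log2 ratio of -0.32 was at the size counted.

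**Figure D2:**
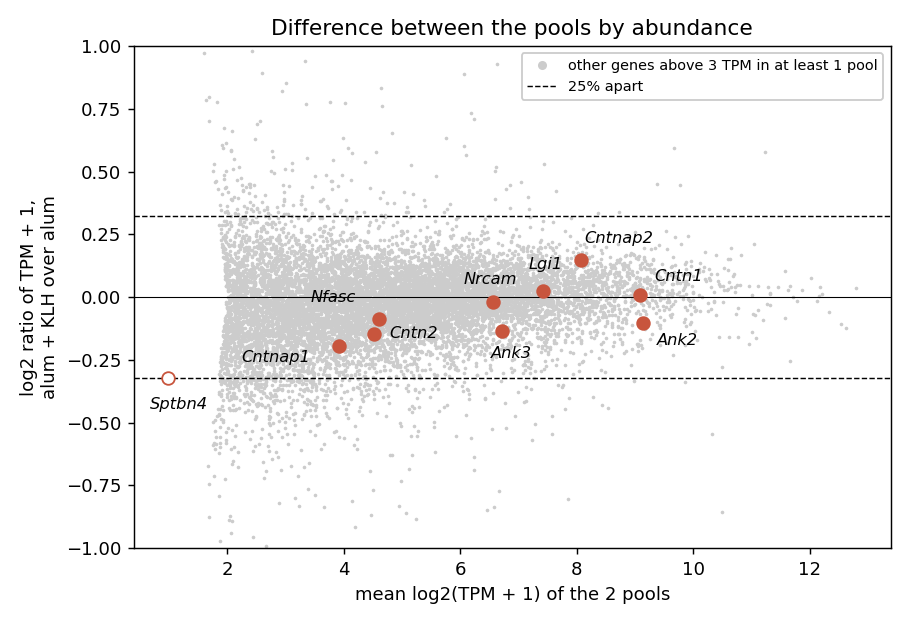
Log2 ratio of TPM + 1, alum + KLH over alum, against the mean log2(TPM + 1) of the pools, with the member genes in red, Sptbn4 as an open symbol, and the other genes above 3 TPM in grey. The 9 detected members lie between the dashed lines at a difference of 25%, and 191 grey genes beyond a log2 ratio of 1 either way are outside the plotted range.

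The paranodal pair was very unequal. Contactin-1, the immunoglobulin-family protein that is anchored in the axon membrane and carries Caspr to the surface, was at 542.1 TPM in the alum pool and 545.1 TPM in the alum + KLH pool. Only 1.23% of genes were higher in either pool, and the log2 ratio of 0.01 was small beside the SD of 0.16. Cntnap1, on chr11:101170523-101190724 (plus strand), encodes its partner Caspr and was at 15.2 and 13.2 TPM, so Cntn1 exceeded it 35.7-fold and 41.4-fold. The log2 ratio of Cntnap1 was -0.20, beside an SD of 0.23 over 500 neighbours and 0.15 over 200, and 20.2% of its neighbours in abundance lay as far from 0.

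The juxtaparanodal pair was unequal in the other direction. Cntnap2, which encodes Caspr2, was at 255.6 TPM in the alum pool and 283.5 TPM in the alum + KLH pool. Cntn2, on the minus strand of chr1:132509427-132543256, encodes the contactin TAG-1 that Caspr2 binds, and was at 23.3 and 21.0 TPM. The level of Cntn2 was thus 0.0913 times the Cntnap2 total in the alum pool and 0.0739 times in the alum + KLH pool. Most of that total was assigned to a short transcript that encodes only the last 108 codons of Caspr2. The long NM_001004357 was at 74.4 and 71.4 TPM, so the gap to Cntn2 was smaller for the transcript of the full protein. The log2 ratios were 0.15 for Cntnap2 and -0.15 for Cntn2, each beside an SD of 0.19 over 500 neighbours and beyond the SDs of 0.12 and 0.14 over 200. Of the neighbours of Cntnap2 in abundance, 15.0% lay as far from 0, and of those of Cntn2, 25.6% did. Within the Caspr family the Cntnap2 total, short transcript included, exceeded Cntnap1 16.8-fold and 21.6-fold. Within the contactins Cntn1 exceeded Cntn2 23.2-fold and 26.0-fold.

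Most of the Cntnap2 signal was assigned to the short transcript. NM_025771 was at 181.2 TPM in the alum pool and 212.0 TPM in the alum + KLH pool, or 70.9% and 74.8% of the gene. The long NM_001004357, which encodes the full Caspr2 protein with its extracellular part, was at 74.4 and 71.4 TPM. The higher Cntnap2 total in the alum + KLH pool therefore came from the short transcript, with a log2 ratio of 0.225 beside an SD of 0.223 among transcripts of like abundance, while the long one had -0.06. Of the 31-base words in the short transcript, 2.58% occur in it and not in the long one, against 37.9% for the long one, so most reads of the short transcript could equally come from the long one and were divided between them by the quantification.

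Most of the Cntn1 signal was assigned to the transcript with the downstream start shown above. NM_001159647 was at 422.4 TPM in the alum pool and 407.1 TPM in the alum + KLH pool, 77.9% and 74.7% of the gene. NM_001159648, from the start 110192 bases upstream, was at 110.4 and 129.9 TPM, and NM_007727 was at 9.27 and 8.12 TPM. The first 2 thus differed in opposite directions, with log2 ratios of -0.05 and 0.23, and the latter exceeded the SD of 0.16 of transcripts of like level, of which 10.8% lay as far from 0. All 3 encode the same protein and differ at both ends, so that a share of a transcript is not a measure of the use of its start, and the words of 31 bases found in 1 of them alone were 7.73%, 3.01% and 2.58% of NM_001159647, NM_001159648 and NM_007727.

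Of the nodal adhesion molecules, NrCAM was the more abundant. Nrcam, on chr12:44328885-44601964 (plus strand), was at 94.4 TPM in the alum pool and 93.0 TPM in the alum + KLH pool, 3.89 and 4.08 times the level of Nfasc. Nfasc was at 24.2 and 22.8 TPM. The log2 ratios were -0.02 for Nrcam and -0.09 for Nfasc, beside SDs of 0.14 and 0.17. The Nrcam total was mostly NM_176930, at 83.3 and 82.4 TPM, which has 3768 coding bases, and NM_001146031 with 3558 coding bases was at 11.0 and 10.6 TPM.

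Both types of neurofascin transcript were detected in both pools. The NF186-type NM_182716, which holds the threonine-rich exon printed above, was at 14.6 TPM in the alum pool and 12.1 TPM in the alum + KLH pool, and the NF155-type NM_001160316 was at 9.62 and 10.7 TPM. The NF155-type share of the gene was 39.7% and 47.0%, a difference of 7.35 percentage points and the largest among the detected members. Each transcript stayed inside the SD of its neighbours, with log2 ratios of -0.26 beside an SD of 0.43 and 0.14 beside 0.39. The summed Schwann cell and satellite glia markers, given below, were lower in the alum + KLH pool, and so were the summed sensory neuron markers (11547 and 11390 TPM). The summed glial partners of the node were higher (2084 and 2302 TPM), mainly through Cd9 (1500 and 1720 TPM). Of the 9 genes of that list above 3 TPM in at least 1 pool, 5 had a log2 ratio below 0. The list also includes the axonal gene Nrg1. The part of glial RNA in the NF155-type share was not tested. Of the words of 31 bases in NM_001160316, 2.25% occur in no other Nfasc structure, and they cannot separate it from NM_001160317, which has the same one. NM_001160318, at 0 in both pools, also holds the exon of 205 bases.

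**Figure D3:**
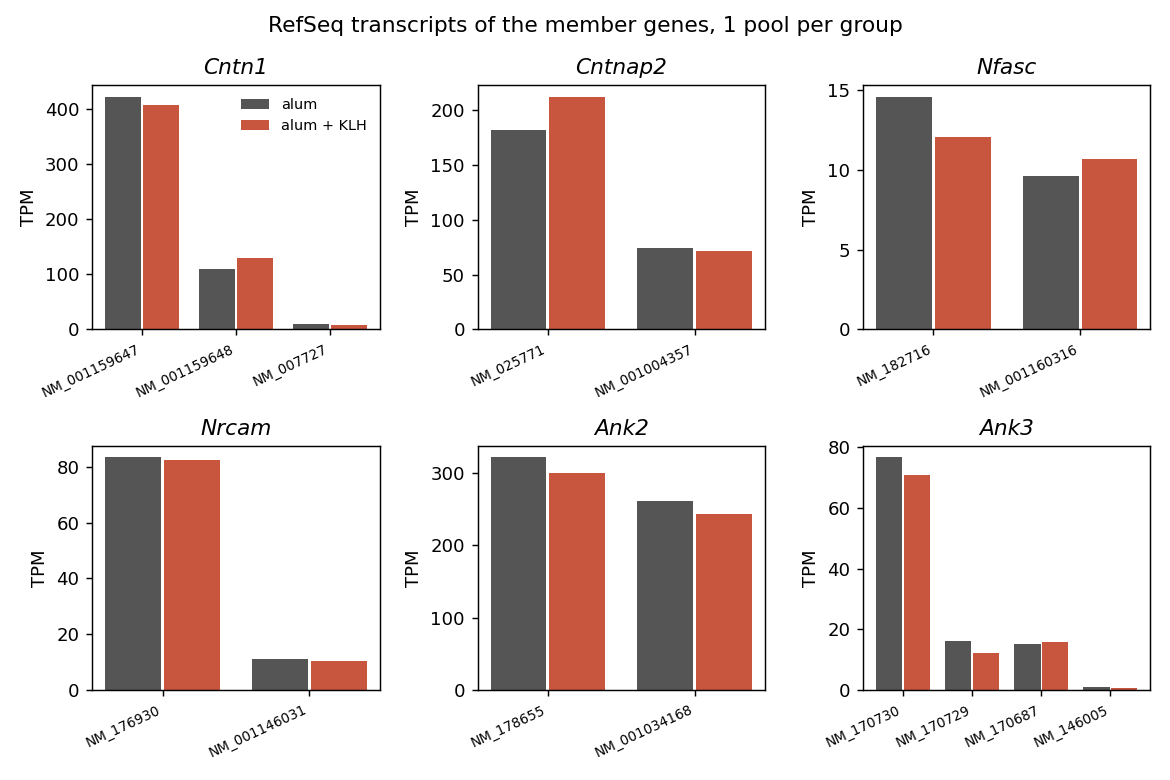
TPM of the RefSeq transcripts that reached 1 TPM in at least 1 pool, for the 6 detected genes with several transcripts, as grey bars for the alum pool and red bars for the alum + KLH pool, on linear axes that differ between panels. Each bar is 1 pooled library, and the leading transcript of each gene was the same in both pools.

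Lgi1 was among the more abundant members. The gene, on chr19:38264536-38312214 (plus strand), had 1 transcript, at 169.9 TPM in the alum pool and 172.9 TPM in the alum + KLH pool. The log2 ratio of 0.03 was small beside the SD of 0.16, and 79.8% of neighbours in abundance lay as far from 0. Adam22 and Adam23, which encode the receptors of LGI1, were at 222.3 and 306.6 TPM in the alum pool and at 230.8 and 318.0 TPM in the alum + KLH pool. The ligand was therefore at 0.764 and 0.749 times the level of Adam22 and at 0.554 and 0.544 times that of Adam23. Lgi4, the glial member of the family that is needed for peripheral myelination, was at 3.48 and 3.71 TPM. Of the words of 31 bases in the GENCODE transcript of Lgi1, 21.9% also occur in other genes, Gm3888 foremost, whereas for the other members this was at most 3.30%.

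Ank2 had the highest level of all members in the alum pool. It encodes ankyrin-B, which binds membrane proteins to spectrin along the axon, and lies on the minus strand of chr3:126921612-127499350. Its level was 582.1 TPM in the alum pool and 541.7 TPM in the alum + KLH pool, where it ranked 268 and 307 among all genes. The log2 ratio was -0.10 beside an SD of 0.16. Both transcripts had a log2 ratio of -0.10, NM_178655 with 55.2% of the gene in both pools and NM_001034168 with 44.8% in both. The GENCODE structure of NM_178655 has 25 exons and 3150 coding bases. It has no coding exon of 99 or 198 bases, the sizes of ankyrin-repeat units. NM_001034168 had no matching structure, so whether it holds such exons was not read.

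Ank3, on chr10:69398773-70027438 (plus strand), encodes ankyrin-G, the organizer of the axon initial segment and the node. It was at 109.6 TPM in the alum pool and 99.7 TPM in the alum + KLH pool, so Ank2 exceeded it 5.31-fold and 5.43-fold. Of its neighbours in abundance, 18.2% had a ratio as far from 0. Of its 9 transcripts, 6 carry 17 coding exons of 99 or 198 bases, the sizes of ankyrin-repeat units, and the other 3 carry none. Of the 6, NM_146005 and NM_170688 are paired with the same GENCODE transcript, so the structure of one of them is uncertain; they summed to 1.20 and 0.817 TPM. The transcripts with these exons summed to 17.5 TPM in the alum pool and 13.1 TPM in the alum + KLH pool, or 16.0% and 13.2% of the gene, so that most Ank3 signal was assigned to transcripts without the membrane-binding repeats. NM_170730, without repeat exons, led with 76.7 and 70.7 TPM, and NM_170687, also without them, had 15.3 and 15.9 TPM. Of the words of 31 bases in them, 1.10% and 8.37% occur in no other Ank3 structure. Their values, and the split by repeat exons, therefore depend on how the quantification divided shared reads. The longest Ank3 coding sequence among these rows was 5883 bases, so the giant ankyrin-G isoforms of the node are not described by them.

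The repeat-bearing signal was nearly all NM_170729, at 16.3 TPM in the alum pool and 12.3 TPM in the alum + KLH pool. This was the 1 member transcript of the 17 detected that differed between the pools by the size counted, being 1.31-fold lower in the alum + KLH pool. Its log2 ratio of -0.39 was inside the SD of 0.43 of transcripts of like abundance, of which 12.8% lay as far from 0. None of the 17 was that much higher. Among all 14215 transcripts above 3 TPM in at least 1 pool, 6.77% were at least 25% higher, 10.9% were lower by as much, and 17.7% did either. No word of 31 bases was found in NM_170729 alone, although 43.0% of its words were absent from the rows without repeat exons.

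Sptbn4, on the minus strand of chr7:27356383-27447686, was the member under the threshold. Beta-IV spectrin joins ankyrin-G to actin at the node and initial segment. The gene was at 1.23 TPM in the alum pool and 0.780 TPM in the alum + KLH pool, and 54.7% and 58.0% of genes were higher. Ank3 exceeded it 89.4-fold and 127.9-fold, and Sptbn1, the widely expressed beta-II spectrin of the axon shaft, exceeded it 418.0-fold and 609.2-fold. The log2 ratio of -0.32 was inside the SD of 0.37 among genes of like abundance. The full-length transcript NM_032610, with 36 exons, was at 0.239 and 0.245 TPM, and most of the rest was the shorter NM_001199235 at 0.988 and 0.378 TPM. At these levels the shares of the transcripts carry no comparison, and the files give no reads per transcript.

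The 12 member transcripts that were not above 3 TPM in either pool reached at most 1.20 TPM in the alum pool and 0.817 TPM in the alum + KLH pool, and 6 of them were at 0 in both. They belonged to Ank3, Nfasc and Sptbn4. Counts over the 17 detected transcripts are therefore not counts over all 29. Of all 35034 transcripts, 14215 were above 3 TPM in at least 1 pool.

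The partners of these genes at the node were set beside them as lists of related genes. Of 15 nodal and juxtaparanodal ion channels, 14 passed 3 TPM in both pools and none was 25% apart, with a median log2 ratio of -0.01. Kcna1, the Kv1.1 subunit that Caspr2 and contactin-2 cluster, was at 357.6 and 378.0 TPM, and its accessory subunit Kcnab1 at 422.0 and 429.6 TPM. Scn9a, the sodium channel Nav1.7 of nociceptors, was at 415.7 and 422.6 TPM, and the sodium channel beta subunit Scn4b at 251.0 and 242.8 TPM. All 4 of these genes stood closer to the level of Cntnap2 than to that of Cntn2.

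Of 15 membrane-skeleton and scaffold genes, 14 passed the 3 TPM filter and none was 25% apart, with a median of -0.08 and 10 below 0. Epb4.1l3, the protein 4.1B that anchors Caspr and Caspr2 to the axonal cytoskeleton, was the highest at 1013 TPM in the alum pool and 1024 TPM in the alum + KLH pool. Sptbn1 was at 512.7 and 475.1 TPM, its partner Sptan1, the alpha-II spectrin, at 380.2 and 355.5 TPM, and the kinase gene Camk2d at 298.6 and 290.4 TPM. Among 22 further genes of the immunoglobulin family and paralogs of the Caspr genes, 20 passed it, none was 25% apart, and the median was -0.01. The synaptic cell adhesion genes Cadm1 (404.8 and 404.2 TPM) and Cadm3 (208.8 and 200.2 TPM) and the glycolipid-anchored Thy1 (288.5 and 280.0 TPM) and Opcml (123.4 and 127.5 TPM) had the highest means.

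Of the 7 genes in the LGI family and receptor list, 6 passed the filter and 1 was lower in the alum + KLH pool by the size counted, with a list median of 0.04. That gene, Adam11, a relative of Adam22 and Adam23, was at 21.5 TPM in the alum pool and 16.4 TPM in the alum + KLH pool, and it is named here because the count is small and not by the rule for naming genes. Lgi2 was at 76.1 and 71.2 TPM and Lgi3 at 27.2 and 27.9 TPM, both below Lgi1. Of 11 glial partners of the node, 9 passed it and none was 25% apart, with a median of -0.04. Cd9, a tetraspanin of the paranode, was at 1500 and 1720 TPM, Itgb1 at 477.9 and 479.5 TPM, the axonal growth factor gene Nrg1 at 46.3 and 45.2 TPM, and the laminin receptor gene Dag1 at 28.7 and 30.1 TPM.

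Genes for other neuronal autoantibody targets were likewise present. Of 25 listed, 18 passed 3 TPM in both pools and none was 25% apart, with a median of -0.02. Map1b, a microtubule-associated protein, was at 2591 TPM in the alum pool and 2533 TPM in the alum + KLH pool. The Hu antigens Elavl4 and Elavl2 were at 530.2 and 479.1 TPM in the alum pool and at 606.6 and 538.7 TPM in the alum + KLH pool, and the GABA receptor gene Gabbr1 was at 240.8 and 236.7 TPM.

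**Figure D4:**
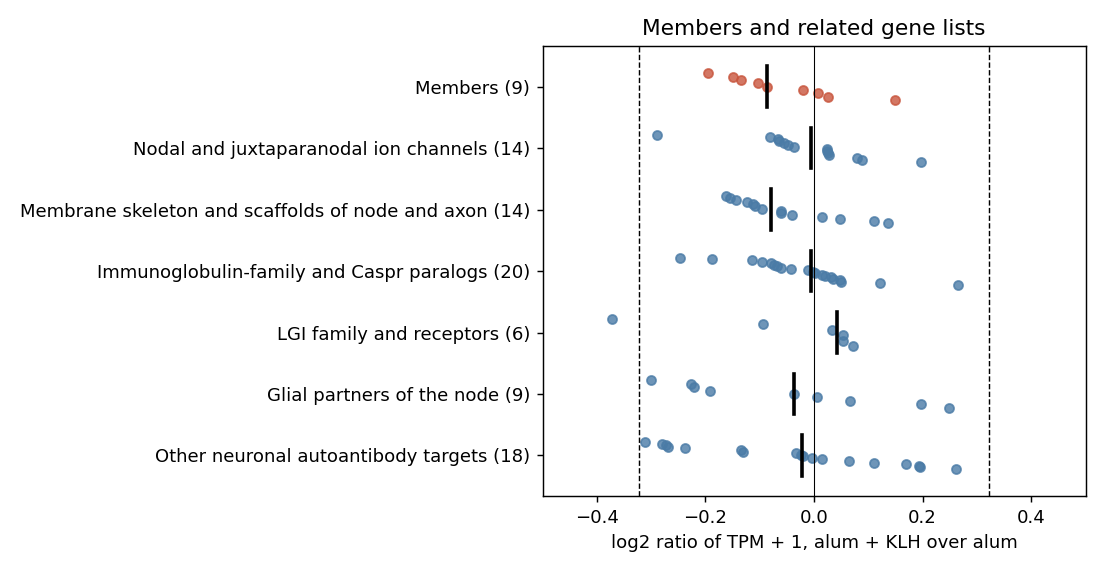
Log2 ratio of TPM + 1, alum + KLH over alum, for the genes above 3 TPM in at least 1 pool among the members and 6 lists of related genes, 1 point per gene, with the number of genes in brackets and a black bar at the median. Dashed lines mark a difference of 25%, and 1 point, Adam11, lies outside them.

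The labelled cell type was checked against marker genes. All 8 sensory neuron markers were above 3 TPM in both pools, from Nefl at 5259 and 5048 TPM to Rbfox3 at 60.8 and 44.6 TPM, and they summed to 11547 and 11390 TPM. Schwann cell and satellite glia markers were present as well. Of 9 Schwann cell markers, 6 passed 3 TPM in both pools, with a sum of 2165 and 2137 TPM and a range from Pmp22 at 1062 and 1021 TPM to Mag at 0.238 and 0.227 TPM. All 8 satellite glia markers were above 3 TPM, with a sum of 1560 and 1444 TPM, from Fabp7 at 952.6 and 888.1 TPM to Slc1a3 at 12.8 and 12.5 TPM. The sensory neuron and satellite glia lists each had 1 gene that was lower by the size counted in the alum + KLH pool, which were Rbfox3 and Apoe (131.9 and 91.5 TPM), and none of the 9 Schwann cell markers was. The part of glial RNA in the levels of Nfasc, Cntn1, Nrcam and Ank3 was not tested.

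Other cell types contributed little marker RNA. None of 6 macrophage markers was above 3 TPM, their sum was 5.27 and 4.60 TPM, and their values ran from Cx3cr1 at 2.08 and 1.66 TPM to Csf1r at 0.113 and 0.167 TPM. None of 5 B lymphocyte markers was above 3 TPM either, with a sum of 1.55 and 0.999 TPM, Cd22 the highest at 0.792 and 0.764 TPM and Cd79b listed at 0 in both pools. Of 5 endothelial markers 1 was above 3 TPM, Cdh5 at 3.79 and 3.15 TPM, while Cldn5 was at 0.142 TPM in the alum pool and listed at 0 in the other, and the list summed to 10.2 and 7.24 TPM. Of 5 fibroblast markers 3 were above 3 TPM, from Dcn at 63.8 and 62.6 TPM to Col1a1 at 0.438 and 0.250 TPM, and they summed to 85.4 and 85.7 TPM.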

How the data were processed

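RNA-seq values of 2 libraries were used, 1 from the pooled DRG neurons of 10 alum-injected mice and 1 from those of 10 alum + KLH-immunized mice. The authors made stranded mRNA libraries, demultiplexed paired-end reads with bcl2fastq, trimmed them with cutadapt and quantified them with kallisto on the iGenome mm10 transcriptome, with versions not given in the sources used here. The deposited unit is TPM for each RefSeq transcript, scaled to a sum of 1000000 per library. No read counts per transcript were in the files, so the depth behind each value could not be read from them and no counting interval was computed. How kallisto divided reads among overlapping transcripts is fixed in the values, which bears most on transcripts of 1 gene with few sequences of their own.

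TPM was summed per gene symbol with Python 3.11.15 and pandas 2.3.3. Septin5, Epb41l3 and Epb41l1 were read under their older symbols. Ratios used a pseudocount of 1 TPM, which understates differences of low genes. Genes above 3 TPM in at least 1 pool entered the counts, 3 TPM being the detection limit in the study's methods, and a difference was counted when the higher TPM + 1 was at least 25% above the lower. No test of significance was possible with 1 library per group. The calculations were checked on simulated TPM values with known 2-fold changes and a smaller spread between the pools than in these data. That was a check of the calculation and does not cover differences of the size counted here. Exon structures came from GENCODE M21 on GRCm38, the assembly of mm10, matched by RefSeq identifier for 28 of the 29 transcripts, and promoter sequences from RefSeq on GRCm38.p6. Codons were translated with Biopython 1.88, and sequences were compared as words of 31 bases between GENCODE transcripts.

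The members and lists were chosen with earlier results of these data known. Named were all members, their transcripts with at least 10% of the gene in a pool and any others the text turns on, the 4 genes of each related list with the highest mean and any past 1.5-fold, and the highest and lowest gene of each marker list. A gene of the Schwann cell marker list is not reported here and was left out of its counts and sums. Alternatives were pseudocounts of 0.1 and 0.5 TPM, rescaling by the pools' median ratio or by Hprt, the highest row of each gene, NM rows only, other thresholds and folds, 200 neighbours, and shares without rows under 1 TPM.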

Additional observations from a re-analysis of the deposited data

How the results depend on the processing

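The number of detected members at least 25% apart was 0 under the main settings and under each of the 8 alternatives computed for it. Some of these 8 could not give another count. With no member 25% apart, none can be 1.5-fold or 2-fold apart, and taking NM rows only leaves every member unchanged. The median log2 ratio of the members ran from -0.17 (relative to Hprt) to -0.07 (median ratio of the pools). Of 60 values of the members' ratios under alternatives, 59 moved by less than the SD of genes of like abundance. The other was Nfasc, at -0.26 with its highest row alone. Part of the 59 could not move at all. The ratios from NM rows only equal the main ones, because all member transcripts are NM rows. With the highest row, those of Cntn2, Cntnap1 and Lgi1 were also fixed, as each has 1 transcript. The sign turned 3 times: for Cntn1 relative to Hprt (-0.08) and with its highest row (-0.05), and for Lgi1 relative to Hprt (-0.06). The number of all genes at least 25% apart, 895, became 298 at 1.5-fold, 191 at 2-fold, 401 among genes above 10 TPM and 1589 with no filter, each by the alternative's own construction. With 200 neighbours instead of 500, the SDs lay between 0.118 (Cntnap2) and 0.356 (Sptbn4). The number of detected members within the SD, 8 of 9, became 5 with 200 neighbours, 5 relative to Hprt and 5 with NM rows only, the other alternatives giving 8 or 9. All its alternatives except that of 200 neighbours were chosen after seeing the data.

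No paired analysis was possible because each group had 1 pooled library, and for the same reason leaving out a replicate was not possible. Without reads per transcript, no limit of detection was computed for low transcripts such as those of Sptbn4.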
